A study of Mus musculus with 6 samples.

Results

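The interferon response and the MHC class I pathway were followed through 35 mouse genes, taken by name from the deposited table of 55335 genes. All 35 were found once in the table, and all 35 were among the 17687 genes that passed the filter on low counts. They are listed by function: class I chains, peptide loading, immunoproteasome, transcription factors and interferon-stimulated genes.

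Mouse retinas were homogenised, material bound by an anti-HA antibody was collected on beads, and its RNA was sequenced. Retinal ganglion cells, which send the eye's output to the brain, are the labelled cell type. There were 3 naive and 3 SOHU libraries, all labelled as wild type C57BL/6 mice aged 10 weeks. SOHU is the labels' name for a model of glaucoma in which silicone oil raises the pressure in the eye. The labels date the injection of oil into the anterior chamber to 1 week before harvest, and this protocol is attached to the naive libraries as well, which are told apart by their condition alone. HA is a peptide tag, and the labels name neither the tagged protein nor the cells that carried it, nor do they say whether libraries came from separate animals or pools. The p-values therefore measure only the spread between these libraries, which may be technical.

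Libraries held 21691354 to 26824919 counted reads. Ganglion cell markers were present in every library, with 10 of 11 markers lower in SOHU by edgeR and summed levels of 3112 to 5431 CPM in naive and 1476 to 2071 CPM in SOHU. CPM is the count of a gene relative to the TMM-scaled total of its library. Markers of other retinal cells were present too. The 10 rod markers summed to 4633 to 7600 CPM, and the glial markers to 9099 to 20475 CPM. In material of this kind, fewer cells of a type and less RNA per cell cannot be told apart, and the same holds for more cells and more RNA.

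Type I interferons act through the receptor IFNAR and the kinases JAK1 and TYK2 on a complex that holds STAT2 and IRF9 and binds the interferon-stimulated response element (ISRE). Interferon gamma acts through its own receptor, and its targets carry the gamma-activated sequence (GAS). MHC class I molecules are a heavy chain paired with B2m that shows peptides, cut by the proteasome and carried by the TAP transporter, to CD8 T cells. The healthy retina is known for low class I levels, which interferon can raise.

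The element that many of these genes share can be read in their promoters. RefSeq (GRCm38.p6, the assembly of mm10) gives a window from 250 bases before to 50 bases after the start site for 29 of the 35 genes. There was no window for Tap2, Nlrc5, Ifi27, Usp18, Parp14 and Rtp4. The ISRE core GAAANNGAAA, searched on both strands, was found in the windows of 12 of 29 members (41.4%) and of 3.99% of all 27025 genes with a window. GAS, searched as TTCNNNGAA, was found in 7 of 29 members (24.1%) and 9.55% of all genes. GAS reads the same on both strands, and a GAS match can overlap an ISRE match, as in Bst2 and Ifitm3. Stretches around the matches are shown for 6 members from several roles, Ifit1 and Ifit3 from the same one, chosen after their values were seen. Each is on the strand of its gene, 5′ to 3′, lies before the gene's annotated start, and has the matched bases in capitals.
B2m, chr2:122147518-122147587, plus strand: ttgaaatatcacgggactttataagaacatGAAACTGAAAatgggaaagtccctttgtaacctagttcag
Isg15, chr4:156200845-156200926, minus strand: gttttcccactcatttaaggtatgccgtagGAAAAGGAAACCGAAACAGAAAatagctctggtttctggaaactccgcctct
Ifit1, chr19:34640755-34640843, plus strand: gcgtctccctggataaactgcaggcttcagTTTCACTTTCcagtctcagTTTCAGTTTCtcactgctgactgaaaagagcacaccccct
Ifit3, chr19:34583343-34583446, plus strand: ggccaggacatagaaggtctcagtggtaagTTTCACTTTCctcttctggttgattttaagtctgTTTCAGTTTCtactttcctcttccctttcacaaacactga
Bst2, chr8:71537557-71537632, minus strand: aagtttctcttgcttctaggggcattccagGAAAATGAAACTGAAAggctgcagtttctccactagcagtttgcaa
Gbp7, chr3:142530253-142530322, plus strand: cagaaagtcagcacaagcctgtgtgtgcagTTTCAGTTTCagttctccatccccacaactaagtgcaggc

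The stretch of B2m holds 1 match, that of Isg15 holds 3 overlapping matches, and those of Ifit1, Ifit3 and Bst2 hold 2 each. In Ifit1, Ifit3 and Gbp7 the capitals are the reverse complement of the motif, which therefore lies on the other strand. A match describes the letters in a window and does not show that a factor was bound. Tap1 and Psmb9 are divergent neighbours whose windows share 275 bases, so their promoters are 1 region.

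Between the groups, SOHU levels of most members were higher on average, but the libraries of each group lay far apart. None of the 35 members passed the threshold of an adjusted p under 0.05 (edgeR, quasi-likelihood test with Benjamini-Hochberg adjustment over all genes tested), against 13.9% of all genes (8.02% higher and 5.93% lower in SOHU). At an unadjusted p under 0.05, 2 of 35 members were higher, against 16.4% of all genes, and none was lower, against 14.8%. DESeq2 called 1 member, Ifi35, against 21.1% of all genes, and limma-voom called none, against 13.9%. Without naive 2, edgeR called 2 members, Ifi35 and Parp14 (5.71%), against 4.85% of all genes. With the replicate number as a block, edgeR called 10 of 35 members higher (28.6%), against 6.66% of all genes. The labels do not state that libraries of the same number are paired.

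The fitted difference nevertheless pointed the same way for nearly all members. The log2 fold change, SOHU minus naive, was above 0 for 33 of 35 members, against 51.1% of all genes, with a median of 0.62 for the members and 0.01 for all genes. It ran from -0.05 for Ifit1 and Ifit3 to 1.19 for Parp14. The members' median standard error was 0.73, against 0.21 for all genes. The median depended on single libraries: it was 0.18 without naive 1, 1.26 without naive 2 and 0.31 without SOHU 2. Without naive 1, 22 of 35 members had a difference above 0.

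**Figure D1:**
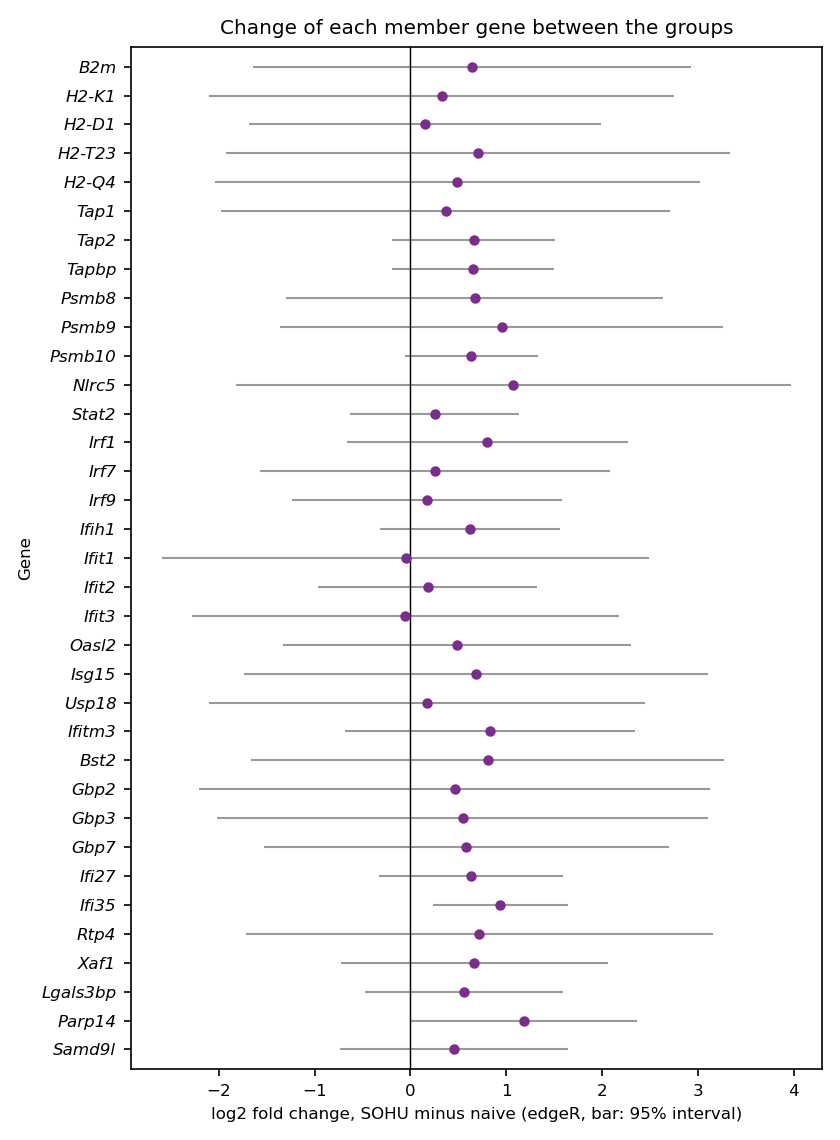
Fitted log2 fold change (SOHU minus naive, edgeR) of each of the 35 member genes on the horizontal axis, with its 95% interval as a bar and the genes ordered by role. Nearly all points lie to the right of 0, and the intervals of all members but Ifi35 and Parp14 include 0.

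Groups overlapped for nearly all members. All SOHU libraries lay above all naive libraries for 1 of 35 members, Ifi35, against 19.3% of all genes. The opposite order was seen for none, against 19.7% of all genes. The difference between groups made up a median of 18.8% of the variation in log2 CPM of a member over the 6 libraries, and 39.2% for all genes.

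The spread within the naive group carried most of that variation. The highest naive library was at least 4-fold above the lowest for 28 of 35 members, against 3.94% of all genes, and the median ratio was 7.52 for the members and 1.26 for all genes. The ratio ran from 2.0 for Psmb10 to 20.5 for H2-Q4. In the SOHU group it reached 4-fold for 4 of 35 members, against 5.22% of all genes, with a median of 2.22 for the members and 1.48 for all genes. Those 4 were Nlrc5, H2-T23, Gbp2 and Bst2. The naive range was the wider one for 33 of 35 members, against 30% of all genes.

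The same spread on a log scale was far above that from counting reads. The median SD of log2 CPM was 1.46 over the naive libraries and 0.59 over the SOHU libraries, where counting alone would give 0.05 and 0.03. For all genes the medians were 0.17 and 0.29. The biological coefficient of variation, edgeR's estimate of the relative spread beyond counting, had a median of 59.5% for the members and 20.1% for all genes, and 24 of 35 members lay above its 95th percentile.

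**Figure D2:**
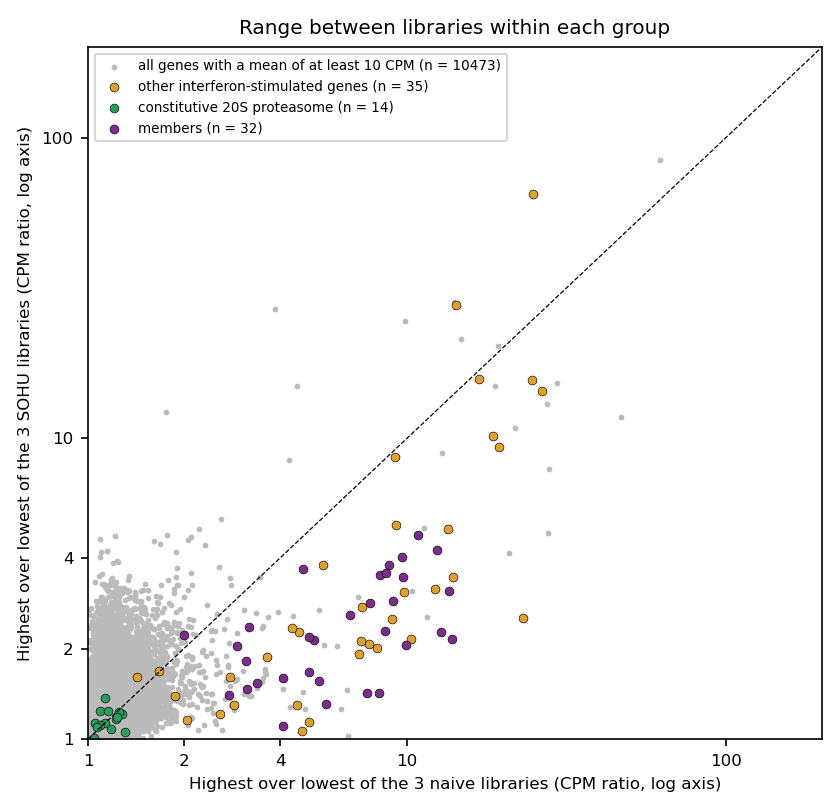
Highest over lowest CPM of the 3 naive libraries (horizontal, log axis) against the same ratio of the 3 SOHU libraries (vertical, log axis) for genes with a mean of at least 10 CPM. Points are 32 members (purple), 35 other interferon-stimulated genes (orange), 14 constitutive proteasome subunits (green) and all 10473 genes at that level (grey); most members lie below the dashed line of equal ranges.

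The order of the libraries was nearly the same from member to member. All 35 members were highest in naive 2, next in naive 3 and lowest in naive 1, an order held by 21.2% of all genes. Naive 1 was also the lowest of all 6 libraries for all 35 members, against 23.2% of all genes. SOHU 1 was the lowest SOHU library for 33 of 35 members, against 36.8% of all genes, and both patterns together held for the same 33 members, against 7.56%. The exceptions were Ifi35 and Ifi27, where SOHU 3 was lowest. SOHU 2 was the highest SOHU library for 27 of 35 members, against 29.3% of all genes, and SOHU 1 for none, against 38.1%. These shares describe genes measured in the same 6 libraries, which are not independent of one another.

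The library naive 2 reached SOHU levels. It lay above the mean of the SOHU libraries for 28 of 35 members, against 48.5% of all genes. It lay above all 3 SOHU libraries for 11 of 35 (31.4%), close to the share of all genes (29.4%). Members together took 0.146%, 0.955% and 0.610% of the counted reads in naive 1 to 3, and 0.389%, 1.10% and 0.879% in SOHU 1 to 3. Naive 1 stood below the other libraries and SOHU 1 stood between it and the rest.

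The ratios depended on which library was set aside. Without naive 1, 0 of 35 members kept a naive range of at least 4-fold, against 0.944% of all genes. The median SD of the naive group was then 0.66. Without naive 2, 14 members kept such a range, against 2.36% of all genes. Without SOHU 1, 0 members had a SOHU range of at least 4-fold, against 1.62% of all genes, and the SOHU group's median SD was 0.20. Without SOHU 2, 1 member had such a range, against 3.11% of all genes. Naive 2 and naive 3 differed by at least 2-fold for 14 members, against 5.3% of all genes, and SOHU 2 and SOHU 3 for 0, against 8.64%.

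**Figure D3:**
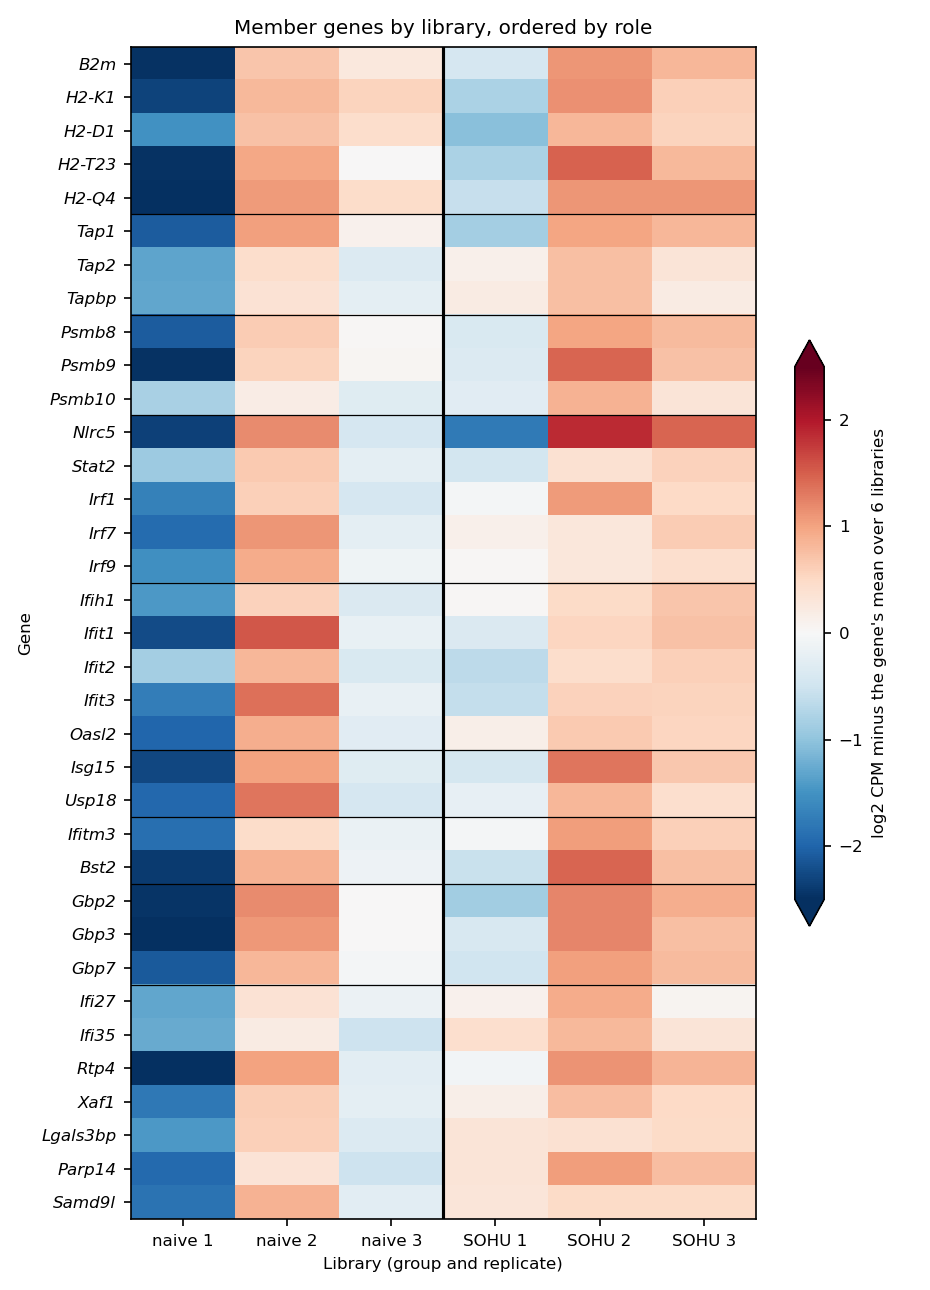
Log2 CPM of each member minus its own mean over the 6 libraries (colour, blue low and red high, limits at the ends of the scale), with genes in rows ordered by role and libraries in columns. Naive 1 is the lowest library in all 35 rows, and naive 2, SOHU 2 and SOHU 3 are above the gene's mean in all 35.

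The class I chains were among the most abundant members. B2m (chr2:122147686-122153083 on mm10), the light chain common to class I molecules, had the highest level per length of all members, with a mean over the 6 libraries of 1247 RPKM (CPM per kilobase of exon). It stood at 150.7, 1360 and 1005 CPM in naive 1 to 3 and at 624.6, 1803 and 1491 CPM in SOHU 1 to 3. Naive 2 and naive 3 lay above SOHU 1, and the groups overlapped. The log2 fold change was 0.64 (SE 0.88, edgeR adjusted p = 0.676).

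H2-K1 (chr17:33996017-34000347), a classical heavy chain that presents peptide to CD8 T cells, had 133.1, 1168 and 977.1 CPM in naive and 384.2, 1461 and 1008 CPM in SOHU. H2-D1 (chr17:35262730-35267499), the other classical heavy chain here, had 379.4, 1797 and 1466 CPM in naive and 526.5, 1933 and 1596 CPM in SOHU. For both genes the first library of each group was the low one, and the remaining 4 stood closer together. The differences between groups were 0.33 for H2-K1 (SE 0.93) and 0.16 for H2-D1 (SE 0.73) on the log2 scale, well inside their errors (edgeR adjusted p = 0.850 and 0.909).

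The non-classical chains spread more widely than the classical ones over the naive libraries. H2-T23 encodes Qa-1, which presents leader peptides of other class I chains to NK and T cell receptors, and had 31.1, 336.8 and 172.8 CPM in naive and 99.9, 478.2 and 304.8 CPM in SOHU. H2-Q4 belongs to the Qa-2 region, and had 0.693, 14.2 and 9.33 CPM in naive and 4.53, 14.7 and 14.8 CPM in SOHU. Its 20.5-fold naive range was the widest of the members and rests on 18 reads in naive 1 against 331 in naive 2. Heavy chain values carry some doubt, since 9.63% of the 50-base windows of H2-K1 transcripts, 12.8% of those of H2-D1, 13.6% of those of H2-T23 and 21.8% of those of H2-Q4 also occur in another gene, and the handling of such reads is not given in the sources used here.

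Heavy and light chain did not move in one fixed proportion. The level of H2-D1 per length was 0.840 of that of B2m in naive 1, 0.440 in naive 2 and 0.487 in naive 3. In SOHU it was 0.281, 0.357 and 0.357, below all naive libraries. For H2-K1 the ratio to B2m was 0.259, 0.251 and 0.285 in naive and 0.180, 0.237 and 0.198 in SOHU, again without overlap. Both comparisons were made after the values were seen, and with 3 libraries against 3 no two-sided exact permutation test can go below p = 0.1.

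**Figure D4:**
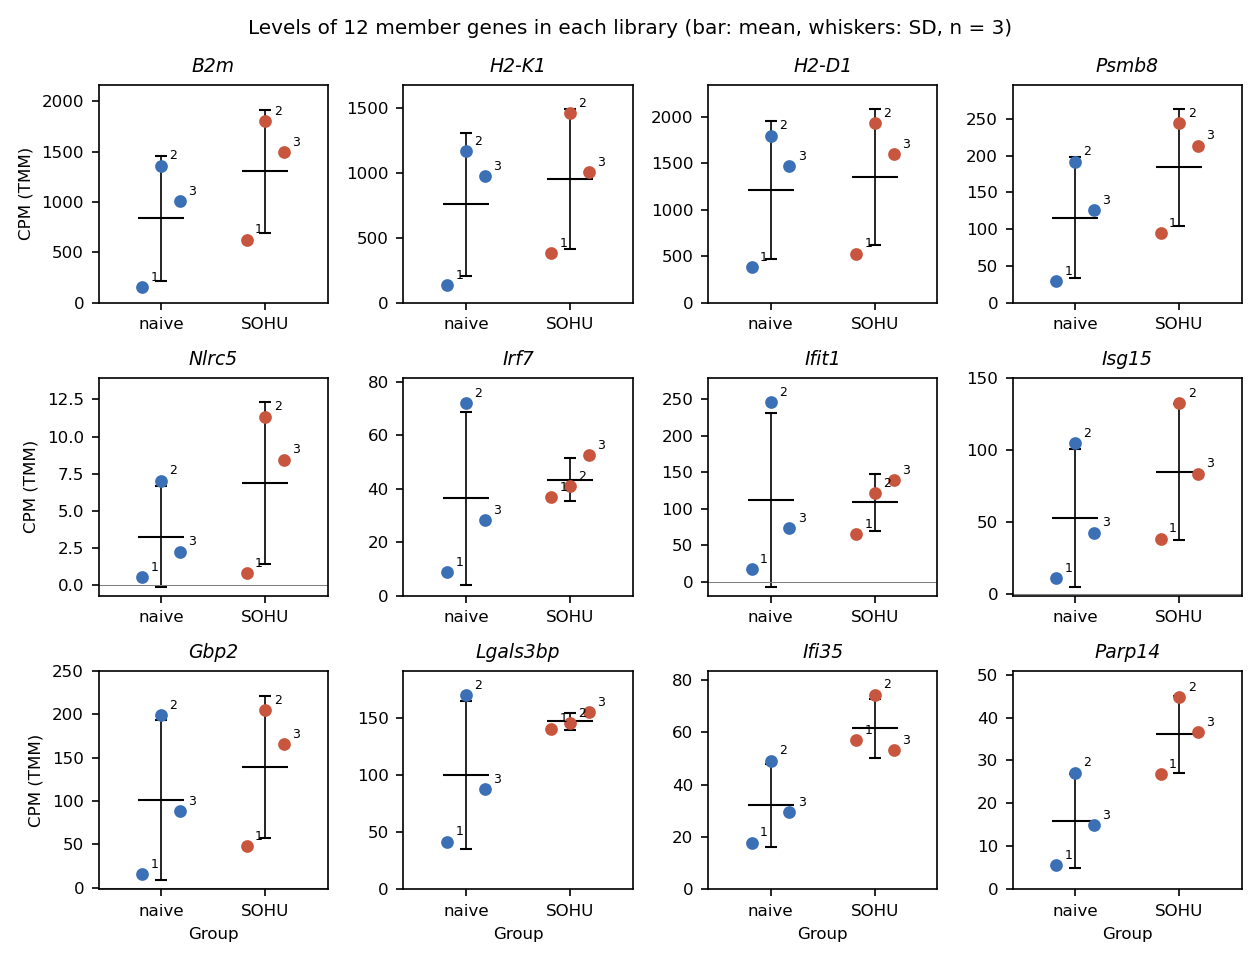
CPM after TMM scaling (vertical axis, linear, own scale per panel) of 12 members in the 3 naive (blue) and 3 SOHU (red) libraries, with library numbers beside the points, the group mean as a bar and the SD as whiskers. Naive 1 is lowest in every panel, and the groups are apart only for Ifi35.

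Genes of peptide supply followed the same libraries, Tap2 and Tapbp with smaller ranges than the median member. Tap1 and Tap2, the subunits of the peptide transporter, ranged 8.6-fold and 3.39-fold over the naive libraries, and Tapbp, the tapasin that bridges the transporter to class I, 3.15-fold. In SOHU the ranges were 3.56-fold, 1.53-fold and 1.46-fold. Log2 fold changes were 0.37, 0.66 and 0.65, with edgeR adjusted p of 0.822, 0.269 and 0.266. Tap1 shares 212 exon bases with Psmb9 on the opposite strand, and with no statement on strand reads in that overlap cannot be assigned to either gene.

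The immunoproteasome is the form of the protease in which interferon-induced subunits take the place of constitutive ones. Psmb10 had 66.3, 132.9 and 93.6 CPM in naive and 95.9, 213.1 and 145.9 CPM in SOHU, and its naive range of 2.0-fold was the narrowest of the members (log2 fold change 0.64, SE 0.31, edgeR adjusted p = 0.194). Psmb8 had 29.0, 192.1 and 126.1 CPM in naive and 94.4, 244.2 and 213.6 CPM in SOHU, and was picked after its values were seen. Psmb9 ranged 8.23-fold over naive and 3.50-fold over SOHU.

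The constitutive subunits that these replace had narrow ranges within each group. Psmb5 had 416.5 to 520.8 CPM in naive and 358.3 to 440.0 CPM in SOHU, Psmb6 had 456.1 to 594.6 and 450.4 to 475.7 CPM, and Psmb7 had 97.9 to 115.9 and 77.0 to 83.1 CPM. Of the 14 constitutive core subunits tested, 0 passed the edgeR threshold, 0 showed the naive order of the members, and the median naive range was 1.14-fold. Their summed level was 4556, 3943 and 4055 CPM in naive and 3755, 3780 and 3717 CPM in SOHU. Every SOHU sum thus lay below every naive sum, and the same held for the values of Psmb7. Per length, Psmb8 stood at 0.0148, 0.123 and 0.0785 of Psmb5 in naive and at 0.0701, 0.148 and 0.130 in SOHU. Psmb9 stood at 0.0109, 0.117 and 0.0795 of Psmb6 in naive and at 0.0597, 0.221 and 0.133 in SOHU. The ratio of Psmb10 to Psmb7 was 1.15, 2.73 and 1.79 in naive and 2.32, 5.55 and 3.55 in SOHU. In all 3 pairs the ratio was lowest in naive 1 and highest in SOHU 2, and SOHU 1 fell between naive 1 and naive 2.

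Among the transcription factors the widest spread was that of Nlrc5 (chr8:94434356-94527272), the transactivator of class I genes. It was also the least abundant member per length, at a mean of 0.598 RPKM, with 0.539, 7.05 and 2.26 CPM in naive and 0.831, 11.3 and 8.45 CPM in SOHU. Both first libraries were low, at 14 reads in naive 1 and 20 in SOHU 1. Nlrc5 was the member with the widest SOHU range, 13.7-fold, and had a log2 fold change of 1.07 (SE 1.16, edgeR adjusted p = 0.582).

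Irf7, which amplifies type I interferon production, behaved otherwise in SOHU. It had 8.82, 72.1 and 28.3 CPM in naive and 36.9, 41.1 and 52.6 CPM in SOHU, values given after they were seen. Naive 2 was above every SOHU library, and the SOHU range was 1.42-fold. Irf9, the DNA-binding part of the type I complex, and Stat2, its partner, also peaked in naive 2, and their naive ranges were 5.56-fold and 2.94-fold. Irf1, an activator of class I genes, ranged 4.93-fold in naive and 2.18-fold in SOHU (log2 fold change 0.80, SE 0.60, edgeR adjusted p = 0.415). Irf7 and Irf9 share exon bases with Phrf1 and Rnf31, whose reads reached 83.4% and 27.3% of theirs.

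The RNA-binding effectors were the role with the smallest difference between groups, at a median log2 fold change of 0.18. Ifit1, which binds foreign RNA caps, had 17.7, 246.2 and 73.8 CPM in naive and 65.2, 121.7 and 139.7 CPM in SOHU. Ifit3, a member of the same complex, had 88.9, 757.8 and 257.8 CPM in naive and 192.9, 440.0 and 431.9 CPM in SOHU. For both, naive 2 was the highest of all 6 libraries. Their log2 fold changes were -0.05 each (SE 0.97 and 0.85, edgeR adjusted p = 0.979 and 0.975). Without naive 2 these became 1.26 and 1.04, without naive 1 -0.57 and -0.53, and without SOHU 1 they were 0.21 and 0.24, so that the direction of both depended on single libraries. Of Ifit3 windows, 51.2% are shared with Ifit3b, its close copy, which had 42.5, 305.5 and 101.7 CPM in naive and 86.9, 184.4 and 168.8 CPM in SOHU.

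The other genes of this role kept closer together in SOHU than in naive. Oasl2, an oligoadenylate synthetase-like protein, ranged 7.52-fold in naive and 1.42-fold in SOHU. Ifih1, which encodes the RNA sensor MDA5, ranged 4.07-fold and 1.59-fold, and Ifit2 3.20-fold and 2.37-fold. Ifit2 and Oasl2 were highest in naive 2, and Ifih1 in SOHU 3.

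Isg15, a ubiquitin-like protein joined to others during the response, had 10.8, 105.0 and 42.4 CPM in naive and 38.3, 132.8 and 83.5 CPM in SOHU. Naive 2 and naive 3 both lay above SOHU 1. Usp18, the protease that removes ISG15 and restrains IFNAR signalling, ranged 9.93-fold in naive and 2.06-fold in SOHU. The log2 fold changes were 0.69 for Isg15 (SE 0.93, edgeR adjusted p = 0.670) and 0.18 for Usp18 (SE 0.88, edgeR adjusted p = 0.915).

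Among the membrane factors, Ifitm3, which blocks virus entry and is also made by glia and vessels, had 113.6, 578.8 and 374.5 CPM in naive and 404.8, 864.4 and 631.7 CPM in SOHU. Bst2, the tetherin that holds budding virus, had 21.9, 211.0 and 106.6 CPM in naive and 79.1, 319.0 and 194.6 CPM in SOHU. SOHU 2 was the highest library for both, and naive 2 lay above SOHU 1 for both. Log2 fold changes were 0.83 (SE 0.61) and 0.80 (SE 0.95), with edgeR adjusted p of 0.411 and 0.619.

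The guanylate-binding proteins, GTPases that act on membranes of pathogens, had the widest naive ranges of any role, with a median of 12.4-fold. Gbp2 had 16.1, 199.5 and 88.8 CPM in naive and 48.2, 205.0 and 165.4 CPM in SOHU. Gbp3 had 8.97, 121.3 and 57.6 CPM in naive and 43.3, 134.4 and 96.5 CPM in SOHU. Naive 2 and SOHU 2 differed by little for both. Gbp7 ranged 7.66-fold in naive and 2.84-fold in SOHU. Log2 fold changes of the 3 genes were 0.46, 0.55 and 0.58, with edgeR adjusted p of 0.802, 0.753 and 0.681.

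The 7 remaining members included the only one whose groups did not overlap and the one with the largest fitted difference. Ifi35 (chr11:101448407-101458698), an interferon-induced leucine zipper protein, had 17.7, 49.2 and 29.4 CPM in naive and 57.1, 74.4 and 53.1 CPM in SOHU. It was singled out after its values were seen, and naive 2 lay just below SOHU 3. The naive mean was 32.1 ± 15.9 CPM and the SOHU mean 61.5 ± 11.4 CPM (SD over n = 3 libraries), a log2 fold change of 0.94 (SE 0.31, edgeR adjusted p = 0.0730). The exact permutation test over the libraries gave p = 0.1, the smallest that 3 against 3 allow. Under DESeq2 its adjusted p was 0.0165.

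Parp14 (chr16:35832874-35871544), an ADP-ribosyltransferase, was the other member with an unadjusted edgeR p under 0.05. It had 5.51, 27.2 and 15.0 CPM in naive and 26.9, 44.8 and 36.7 CPM in SOHU. Naive 2 was slightly above SOHU 1, which is the only overlap. The log2 fold change was 1.19 (SE 0.50, edgeR adjusted p = 0.158).

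Rtp4, a chaperone induced by interferon, had 10.6, 134.9 and 55.7 CPM in naive and 64.3, 146.4 and 120.3 CPM in SOHU. Ifi27, a mitochondrial and nuclear membrane protein, had 39.8, 124.8 and 88.2 CPM in naive and 105.0, 185.6 and 101.8 CPM in SOHU. Rtp4 separated naive 1 from the rest, while Ifi27 placed naive 1 low, SOHU 2 high and the other libraries between. Their log2 fold changes were 0.72 and 0.63 (edgeR adjusted p = 0.657 and 0.338).

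Lgals3bp, a secreted glycoprotein, had the tightest SOHU values of any member. It had 41.6, 170.1 and 87.8 CPM in naive and 140.6, 145.6 and 155.1 CPM in SOHU, values given after they were seen. The SOHU range was 1.10-fold against 4.09-fold in naive, and naive 2 was above all SOHU libraries. Samd9l, a translation-linked antiviral factor, was also tight in SOHU, at 1.13-fold against 6.81-fold in naive, and Xaf1, a pro-apoptotic protein, at 1.56-fold against 5.29-fold. Log2 fold changes were 0.56, 0.46 and 0.67, with edgeR adjusted p of 0.434, 0.596 and 0.477.

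Upstream of these genes, interferon transcripts were nearly absent. Of 18 interferon genes of types I, II and III, 15 had no read in any library and none passed the filter on low counts. Ifng, Ifnl2, Ifnl3 and the listed Ifna genes had no read, Ifnb1 had 1 read in all, in naive 3, Ifnk had 3, in SOHU 2, and Ifnz had 1, 0 and 0 in naive and 8, 2 and 2 in SOHU. At this depth a count of 0 allows up to 3 reads per library.

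Receptor genes were present, most with narrow ranges within groups. Ifnar2, a chain of the type I receptor, had 19.0, 25.7 and 23.3 CPM in naive and 43.6, 43.2 and 32.0 CPM in SOHU. It rose with no overlap between groups (log2 fold change 0.81, SE 0.18, edgeR adjusted p = 0.0223). Ifnar1, the other chain, had 32.1, 26.6 and 27.3 CPM in naive and 41.9, 37.7 and 39.1 CPM in SOHU (0.47, SE 0.14, edgeR adjusted p = 0.0569). The interferon gamma receptor genes Ifngr1 and Ifngr2 had log2 fold changes of 0.61 and -0.09 (edgeR adjusted p = 0.123 and 0.697), and the type III receptor gene Ifnlr1 stayed below 3 CPM in all libraries. Of the 15 receptor and signalling genes, 1 was higher and 0 lower, and their median naive range was 1.22-fold.

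Of 16 sensors and adaptors tested, 4 were higher and 0 lower, where 8.02% and 5.93% of all genes were. Myd88, the Toll-like receptor adaptor, had a log2 fold change of 1.16 (edgeR adjusted p = 0.0237), Mavs, the adaptor of RNA sensors, 1.10 (0.0255), Irf3, the factor they activate, 0.62 (0.0319), and Ticam1, the adaptor of TLR3, 1.28 (0.0480).

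Interferon-stimulated genes outside the 35 showed the members' library order. Of 58 tested, 1 was higher by edgeR, Ifitm2 (log2 fold change 0.94, adjusted p = 0.0410), and 0 were lower. Of the 58, 56 followed the naive order of the members, 48 were lowest in SOHU 1 within SOHU, and 45 had a naive range of at least 4-fold. Their summed level was 399.8, 2454 and 1167 CPM in naive and 1103, 2633 and 2159 CPM in SOHU.

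Most class I genes outside the members shared their naive order, with narrower ranges. Of 17 tested, 13 did so, against 21.2% of all genes, and their median naive range was 1.63-fold. Of the 17, 9 were also lowest in SOHU 1 within SOHU, against 7.56% of all genes. By edgeR 4 were higher and 1 lower, against 8.02% and 5.93% of all genes. Cd1d1, Hfe, Fcgrt and Mr1 were higher, with log2 fold changes of 1.41, 0.99, 1.01 and 0.94 (edgeR adjusted p = 0.0180, 0.0214, 0.0219 and 0.0428). These encode a lipid-presenting chain, an iron regulator, the neonatal Fc receptor and a chain presenting vitamin metabolites. Calr, the chaperone calreticulin, was lower (-0.49, edgeR adjusted p = 0.0323). H2-Q6 and H2-Q7, neighbours of H2-Q4, kept the members' order, with 9.59, 208.8 and 168.6 CPM in naive and 18.7, 202.7 and 158.7 CPM in SOHU for H2-Q6.

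Among the 10473 genes with a mean of at least 10 CPM, 84 (0.802%) had a naive range of at least 4-fold. Of these, 25 were members, 27 were other interferon-stimulated genes of the list and 5 were class II genes. In no list were 20, among them the iron carrier Lcn2, the protease inhibitor Timp1, the chemokine Ccl2, the complement genes C3, C4b and Serping1, and the adhesion gene Vcam1, named after their values were seen. Others in no list were Gm12250, Gm4951, Trim30d, Il18bp, Uba7 and Lgals9. Absence from the lists does not show that a gene is unaffected by interferon. All 84 followed the order naive 2, naive 3, naive 1. Lcn2 had 9.24, 432.8 and 93.3 CPM in naive and 56.0, 656.7 and 318.5 CPM in SOHU.

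Class II genes, which present peptide to CD4 T cells and are mainly made by professional presenting cells, followed the members' library order. All 7 tested followed the naive order and were lowest in SOHU 1 within SOHU, and 0 passed the edgeR threshold. Their summed level was 52.0, 382.8 and 275.0 CPM in naive and 39.1, 471.2 and 247.5 CPM in SOHU, so SOHU 1 lay below naive 1. Cd74, the invariant chain, had 2.93, 182.3 and 127.4 CPM in naive and 2.04, 171.3 and 71.7 CPM in SOHU.

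Lists of immune cell markers differed in their library order. The 19 microglia and macrophage markers summed to 27.1, 60.0 and 44.3 CPM in naive and to 181.3, 110.2 and 69.0 CPM in SOHU, with 15 of 17 genes tested in the naive order and 0 of 17 lowest in SOHU 1. Of the 17, 6 were higher by edgeR (Lyz2, Trem2, Tyrobp, Cd68, C1qa and C1qb). Single genes of this list had wide naive ranges, at least 4-fold for 11 of the 17 with a median of 5.94-fold. These ranges rest on few reads, since the 19 markers together had 703 in naive 1. Their sum ranged 2.22-fold over the naive libraries. The 14 T and NK cell markers summed to 0.655, 6.06 and 3.36 CPM in naive and 2.20, 8.88 and 10.0 CPM in SOHU, and Cd3e had no read in naive 1 and naive 3. In this sum naive 1 and SOHU 1 were the lowest of their groups. Only 3 of these markers were tested, all 3 with a naive range of at least 4-fold, and the list had 17 reads in naive 1. The 10 markers of dendritic and B cells summed to 12.9, 8.77 and 8.4 CPM in naive and 4.65, 5.47 and 8.01 CPM in SOHU, with naive 1 highest and SOHU 1 lowest. Of the 2 tested, 0 had a naive range of at least 4-fold. The part of immune cells in the spread of the members was not tested.

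Glial markers differed from the members in their SOHU order. Of 12 Müller glia and astrocyte markers tested, 8 followed the naive order of the members and 0 were lowest in SOHU 1. By edgeR 8 of the 12 were higher, with sums of 9639, 10358 and 9099 CPM in naive and 20475, 13205 and 11390 CPM in SOHU, highest in SOHU 1, where the members were low. Of 9 endothelial markers tested, 2 were higher (Flt1 and Kdr) and 0 lower, with a median log2 fold change of -0.08, and Pecam1 stayed at 0.122 to 0.559 CPM. The 12 endothelial markers listed summed to 375.6, 432.3 and 393.9 CPM in naive and 1036, 915.7 and 730.1 CPM in SOHU. Every SOHU sum lay above every naive sum, with SOHU 1 highest. The ganglion cell markers summed to 5431, 3112 and 3661 CPM in naive and 1617, 1476 and 2071 CPM in SOHU, highest in naive 1, where the members were lowest, and 0 of 11 followed the members' naive order. The part of glia, vessels and ganglion cells in the members' levels was not tested.

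**Figure D5:**
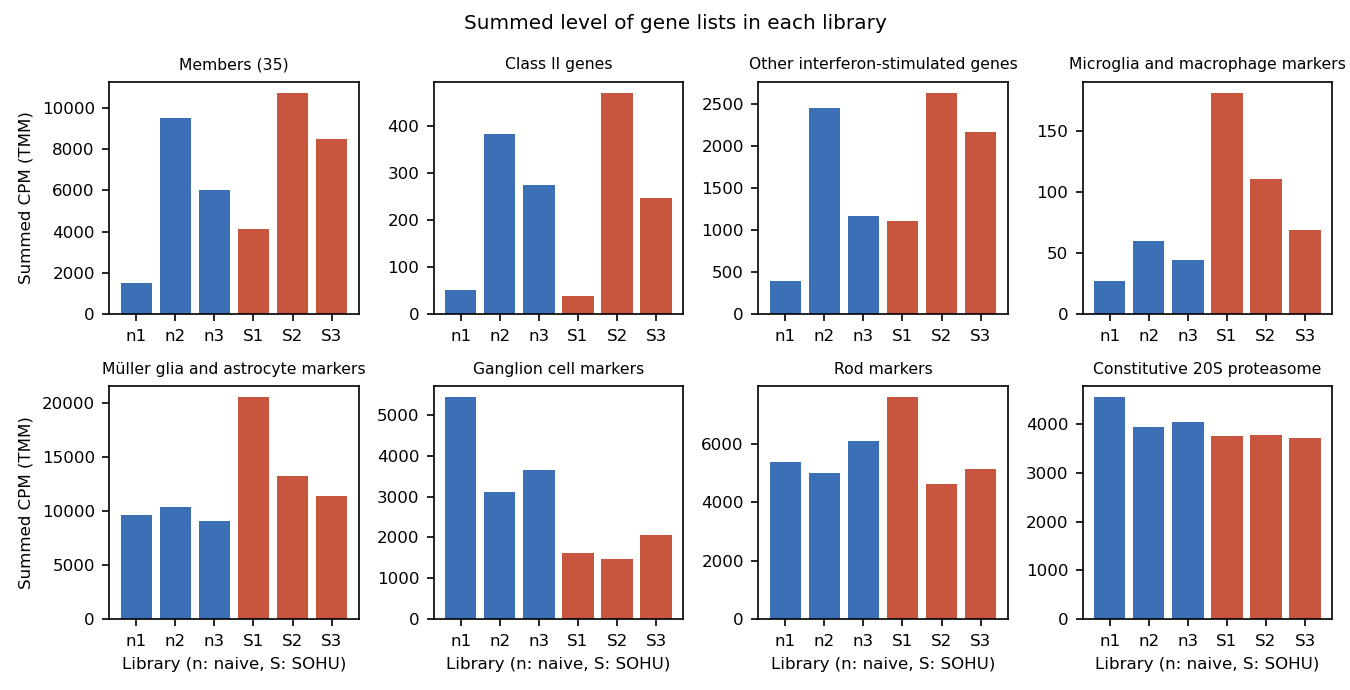
Summed CPM after TMM scaling (vertical axis, from 0, own scale per panel) of the members and 7 other gene lists in naive 1 to 3 (n, blue) and SOHU 1 to 3 (S, red). Members, class II genes and other interferon-stimulated genes are low in n1 and S1, while microglial and glial markers are highest in S1. The proteasome subunits vary little within each group and are lower in SOHU.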

How the data were processed

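Counts of reads per gene for 6 libraries were deposited by the authors, unnormalised, and the 6 single-library files equalled the columns of the series table. HISAT2, HISAT, featureCounts, Trim Galore, MultiQC and bcl2fastq 2.17 on build mm10 are named per the submitters' processing notes, with the annotation, the strand setting and the handling of reads with several alignments not given in the sources used here. Of 55335 genes, 55154 received a symbol from GENCODE M21 by Ensembl identifier. Groups follow the labelled condition. Low counts were removed with filterByExpr, libraries were scaled by TMM, and edgeR 4.0.16 tested the group difference by quasi-likelihood (R 4.3.3, group as the only term, adjusted p under 0.05 over 17687 genes). CPM and RPKM use the TMM scaling and the exon lengths in the files, and log2 CPM has a prior count of 2. Alternatives were DESeq2 1.42.0, limma-voom 3.58.1, other scalings, no filter, a replicate block and leaving out each library. Chi-square per degree of freedom within groups was 13.8 to 87.9, so no library repeats another.

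The members, gene lists and the alternatives were chosen with earlier results of these data known. The naming rule prints library values for members past the threshold, the 10 with the highest mean RPKM and the 5 with the widest range in each group; others named with library values were picked after these were seen. Because no member passed the threshold, the promoters shown do not follow that rule. The limit for a count of 0 covers counting error only, while the intervals of fold changes include the spread between libraries.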

Additional observations from a re-analysis of the deposited data

How the results depend on the processing

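Against 2467 genes called, DESeq2 called 3724, and leaving out 1 library gave 0 (without naive 1 or naive 3) to 3896 (without SOHU 3) by edgeR. Member calls, 0 as reported, were 1 under DESeq2 and 0 to 2 without 1 library; no member was called lower under any setting. Replicate numbers are shared by the groups, but nothing in the labels pairs libraries. Deviations of same-numbered libraries correlated at 0.16, 0.25 and 0.00 across genes. The values for numbers 1 and 2 were the highest of any pair, and libraries of different numbers ran from -0.28 to 0.095. Naive 3 correlated best with SOHU 2. With the replicate number as a block, edgeR called 10 members higher, 28.6% against 6.66% of all genes (Parp14, Ifi35, Bst2, Psmb9, Psmb10, Irf1, H2-T23, Ifitm3, Isg15 and Psmb8) and 2070 genes in all. The sign of 13 members differed in at least 1 setting. Ifit1 went from -0.05 to 0.61 under limma-voom and 0.60 under the block, and Ifit3 from -0.05 to 0.36 and 0.37. Without 1 library, log2 fold changes ran from -0.18 to 0.78 (H2-K1), -0.28 to 0.56 (H2-D1), -0.070 to 1.19 (H2-Q4), -0.12 to 1.14 (Tap1), -0.060 to 0.77 (Stat2), -0.22 to 1.24 (Irf7), -0.26 to 0.92 (Irf9), -0.57 to 1.26 (Ifit1), -0.14 to 0.83 (Ifit2), -0.53 to 1.04 (Ifit3), -0.32 to 1.41 (Usp18), -0.060 to 1.42 (Gbp2) and -0.0086 to 1.30 (Samd9l). The median naive SD of log2 CPM (1.46) ran from 0.66 to 2.06 and the SOHU one (0.59) from 0.20 to 0.79. Members with a 4-fold range, settings added after the data were seen, numbered 0 to 28 in naive and 0 to 4 in SOHU without 1 library, and 28 and 6 when scaled by library totals only. The cause of these changes was not tested. Of the members, 32 had at least 50 reads in every library; H2-Q4, Nlrc5 and Samd9l did not, and their ranges are the least precise.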

Other observations

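Psme1 and Psme2, which encode the interferon-inducible cap of the proteasome, had 128.0, 223.1 and 184.5 CPM and 76.3, 134.0 and 106.7 CPM in naive, and 158.3, 223.6 and 192.1 CPM and 112.1, 147.0 and 133.6 CPM in SOHU. Their ranges were narrower than those of the immunoproteasome subunits Psmb8 and Psmb9, and their ratio per length stayed at 1.33 to 1.38 in naive and 1.13 to 1.21 in SOHU.

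Iigp1 and Tgtp2, interferon-inducible GTPases picked after their values were seen, spread widely. Iigp1 had 2.46, 65.2 and 27.0 CPM in naive and 5.11, 73.5 and 61.5 CPM in SOHU, and Tgtp2 1.89, 46.8 and 25.3 CPM and 0.706, 28.7 and 46.0 CPM. The chemokine gene Cxcl10 had 8.20, 75.3 and 26.9 CPM in naive and 15.2, 131.1 and 53.0 CPM in SOHU. Members whose promoter window held the ISRE core had a median naive range of 9.33-fold and those without it 5.56-fold; for GAS the medians were 5.09-fold with and 8.21-fold without, descriptions with no test.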
